A study of Mus musculus with 36 samples.

Results

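Hox genes encode homeodomain transcription factors that give cells their position along the body axis. The 39 mouse genes were taken by symbol from the 21761 genes of the count files, 11 from the HoxA cluster, 10 from HoxB, 9 from HoxC and 9 from HoxD. The 19 with enough reads to test belong to HoxA (with Hoxa2 to Hoxa5), HoxB (Hoxb2 to Hoxb9), HoxC (Hoxc4, Hoxc5 and Hoxc6) and HoxD (Hoxd3, Hoxd4 and Hoxd8), among 15207 genes tested in all. The cells were motor neurons differentiated from mouse embryonic stem cells of the strain labelled transgenic Hlxb9-GFP1Tmj, in which the promoter of the motor neuron gene HB9 drives eGFP, or eGFP with the surface protein CD2. They were sorted magnetically through CD2 and then held in astrocyte-conditioned medium for 1 or 3 days. The medium came from astrocytes of newborn pups that were non-transgenic (NTg), carried a transgene overexpressing SOD1 with the G93A mutation known from familial amyotrophic lateral sclerosis (mSOD1), or carried one overexpressing the unmutated enzyme (wtSOD1), the carriers being bred with mice without a transgene. Each of the 6 groups of medium and day held 6 RNA-seq libraries, numbered by the experiment (1 to 6) that the labels give.

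All 6 groups share the reporter strain, the CD2 sort, and a supplement of glucose, penicillin/streptomycin, GDNF, BDNF and CNTF. Astrocytes came from spinal cord or cortex, but the sources do not tell which tissue served which library. A sort on an HB9-driven protein selects cells by promoter activity, and the number of stem cell lines is not given either. The time zero control named in the series description was not analysed here. Library totals ran from 4386946 to 88931151 reads with a median of 13280870, and Hox genes took 0.0413% to 0.0545% of them, or 2013 to 37478 reads. On the first principal component of all genes every library of day 1 lay apart from every library of day 3. A pair of day 1 libraries stood apart from their groups on the second and the third component, NTg replicate 6 (the smallest library) and wtSOD1 replicate 4 (the largest).

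The genes of a Hox cluster lie in the order in which they are switched on along the body, so that low paralog numbers are expressed from the hindbrain backwards and higher numbers only in more caudal cord. Retinoic acid, used to make motor neurons from stem cells, induces the anterior genes. In the spinal cord Hox proteins assign motor neurons to columns and muscle-specific pools, and they bind DNA together with Pbx and Meis proteins.

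The stretch of 250 bases before the start site is shown for 5 members with a RefSeq promoter (GRCm38.p6) to set members that fell between the days beside one that did not pass and one that rose. Hoxa2 (chr6:52164832-52165081, minus strand), Hoxa5 (chr6:52204588-52204837, minus strand) and Hoxd4 (chr2:74721728-74721977, plus strand) were lower on day 3 in every medium. Hoxb4 (chr11:96318017-96318266, plus strand) did not pass in any, and Hoxb8 (chr11:96281655-96281904, plus strand) was higher in every one. Each is written 5′ to 3′ on the strand of its gene, and capitals mark matches, on either strand, to TGATNNAT (a Pbx and Hox composite), AGGTCA (bound by nuclear receptors) or TATAAA, the letters of the TATA box. No match overlaps another.
Hoxa2: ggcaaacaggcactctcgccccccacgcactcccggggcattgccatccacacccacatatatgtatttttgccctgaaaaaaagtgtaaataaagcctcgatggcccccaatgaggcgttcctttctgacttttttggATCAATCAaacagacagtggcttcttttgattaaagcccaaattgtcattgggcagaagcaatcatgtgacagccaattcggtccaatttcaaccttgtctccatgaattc
Hoxa5: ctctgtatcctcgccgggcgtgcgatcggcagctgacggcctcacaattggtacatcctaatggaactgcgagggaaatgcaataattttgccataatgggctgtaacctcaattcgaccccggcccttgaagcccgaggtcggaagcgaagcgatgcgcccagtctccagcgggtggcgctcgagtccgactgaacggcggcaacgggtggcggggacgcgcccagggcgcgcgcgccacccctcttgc
Hoxd4: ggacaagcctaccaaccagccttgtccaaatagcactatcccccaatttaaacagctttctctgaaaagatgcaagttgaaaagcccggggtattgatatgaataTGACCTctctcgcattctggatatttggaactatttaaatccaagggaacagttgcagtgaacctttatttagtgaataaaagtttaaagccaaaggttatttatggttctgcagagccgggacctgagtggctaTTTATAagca
Hoxb4: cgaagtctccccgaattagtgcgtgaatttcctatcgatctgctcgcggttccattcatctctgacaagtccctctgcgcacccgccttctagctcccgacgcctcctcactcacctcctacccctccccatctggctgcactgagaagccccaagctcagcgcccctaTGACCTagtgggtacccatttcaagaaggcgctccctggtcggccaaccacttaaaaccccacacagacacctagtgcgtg
Hoxb8: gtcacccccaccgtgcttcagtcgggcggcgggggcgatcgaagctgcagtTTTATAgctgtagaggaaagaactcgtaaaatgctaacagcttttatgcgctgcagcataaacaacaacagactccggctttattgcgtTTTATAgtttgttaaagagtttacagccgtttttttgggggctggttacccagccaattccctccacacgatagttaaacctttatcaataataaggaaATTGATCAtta

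TGATNNAT was present once in Hoxa2, at bases -111 to -104 from the start site, and once in Hoxb8, at -11 to -4. AGGTCA was present in Hoxd4 at -145 to -140 and in Hoxb4 at -81 to -76, and Hoxa5 held none of these letters. TATAAA was found in Hoxd4 at -10 to -5 and in Hoxb8 at -199 to -194 and -110 to -105, in each case on the strand opposite to the gene. Of 32851 promoters of this length 7.68% held TGATNNAT, 14% AGGTCA and 12.4% TATAAA, and of the 24 Hox windows (22 genes) 4, 6 and 4 did. The GC content of the windows shown was 46.4% for Hoxa2, 63.6% for Hoxa5, 40.4% for Hoxd4, 58% for Hoxb4 and 44.4% for Hoxb8, against a median of 52.4% over all promoters and 58.6% over the Hox windows. Hoxa5 held 28 CpG dinucleotides and Hoxd4 held 3, where the median was 6 over all promoters and 12.5 over the Hox windows. The matches and the base composition are descriptions of these windows, and no binding was measured. Hoxb3, Hoxb6 and Hoxb7 are named only.

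Which Hox genes were read in these cultures? Whole cultures were read, so no level is tied to a cell type. Neural progenitor markers summed to a mean of 602 CPM and motor neuron markers to 1617 CPM in NTg medium on day 1. Reads fell mainly on paralogs 1 to 5, with a summed level of 469 ± 33 CPM (counts scaled to 1e6 reads; mean ± SD over 6 libraries) on day 1 in NTg medium. Paralogs 6 to 9 summed to 44.5 ± 2.1 CPM and paralogs 10 to 13 to a median of 0.541 CPM there. To compare genes, CPM were divided by the length in kb of each gene's annotated exons (GRCm38). On that scale Hoxd3 ranked first on day 1 in NTg medium at 20.1 ± 2.0 CPM per kb, followed by Hoxb3 at 15.6 ± 1.4, Hoxb5 at 15.1 ± 2.9 and Hoxb4 at 15.0 ± 2.4. Hoxd3 had 17.7 in its lowest library and Hoxb3 17.8 in its highest, so these neighbours in the order touched. Levels per kb of Hoxa5 (14.4 ± 0.89), Hoxa3 (14.2 ± 0.62), Hoxc4 (13.3 ± 1.8) and Hoxa2 (13.2 ± 0.96) lay within each other's spread, and Hoxa4 came next at 10.8 ± 0.95.

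Lower in the order on day 1 were Hoxb2 at 7.58, Hoxb8 at 6.66, Hoxb7 at 5.99, Hoxb6 at 3.93, Hoxd4 at 3.62, Hoxc5 at 3.06 and Hoxb9 at 2.11 CPM per kb. Hoxd8 had 0.811 CPM per kb and Hoxc6 had 0.491. By cluster, HoxA therefore ended sharply between Hoxa5 and the untested Hoxa6, HoxB reached Hoxb9, HoxC faded from Hoxc4 to Hoxc6 and HoxD held mainly Hoxd3. Hoxc5 and Hoxc6 mark cervical cord and the brachial motor neurons that supply the forelimb. By day 3 in NTg medium Hoxb3 ranked first at 25.8 ± 2.1 CPM per kb, its lowest library (22.4) above the highest of Hoxb4 (17.1), and Hoxd3 had rank 5 at 10.8 ± 1.4. The order depends on the exon length used: divided by the longest transcript instead, Hoxa3 ranked first on day 1 and Hoxb3 again on day 3.

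**Figure D1:**
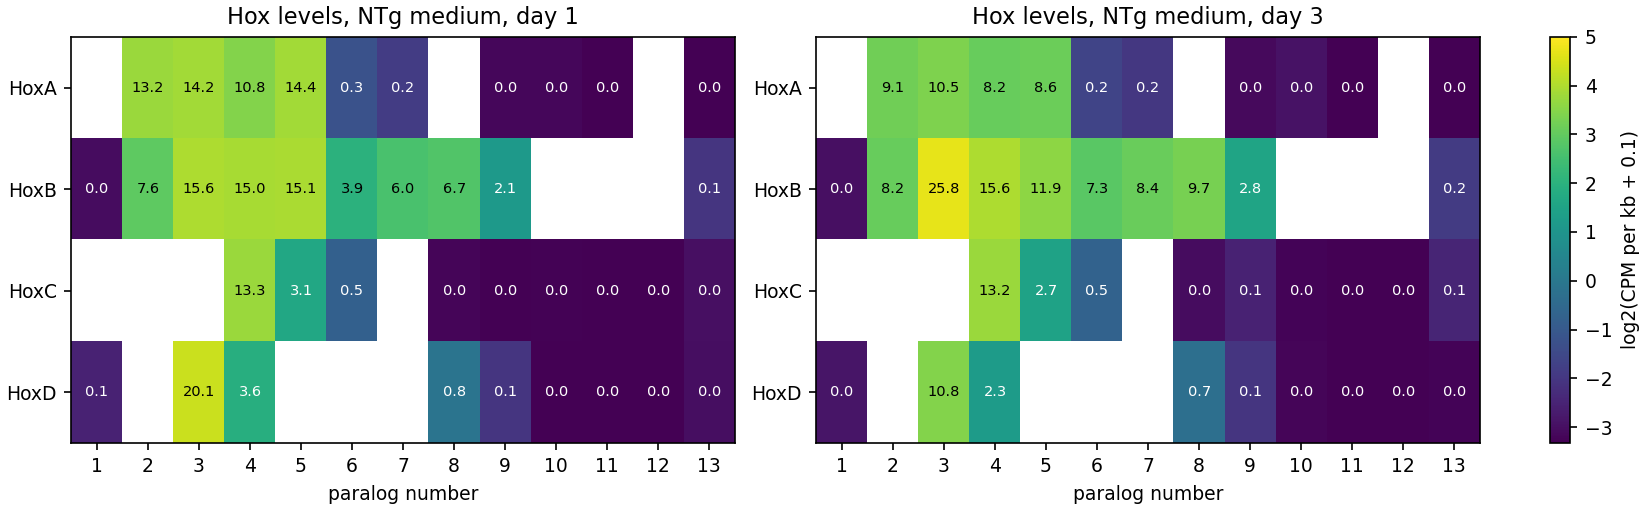
Mean level of each Hox gene in NTg medium on day 1 (left) and day 3 (right), in CPM per kb of exon (n = 6 libraries); rows are the 4 clusters, columns the paralog number, the colour is log2(CPM per kb + 0.1) and white cells are genes that mice do not have or that are not shown. Levels concentrate in paralogs 2 to 5, HoxB extends to paralog 9, and the brightest cell is Hoxd3 on day 1 (20.1) and Hoxb3 on day 3 (25.8).

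The remaining 20 members were too low to test. Hoxa11, Hoxc11, Hoxc12, Hoxd11 and Hoxd12 had no read in any of the 36 libraries, which allows a mean level of up to 0.00496 CPM (3 reads over all libraries, counting error only). Hoxb1, the rhombomere 4 gene of the hindbrain, had 32 reads in all and at most 0.297 CPM in a library. Hoxc8, which marks lower brachial cord, had 30 reads and at most 0.289 CPM, and Hoxc9, the gene that sets thoracic motor neuron identity, had 37 reads and at most 0.398 CPM. Hoxd10, a lumbar gene, had 18 reads in 7 libraries. Hoxc8, Hoxc9 and Hoxd10 were thus near the detection limit in every group. Hoxa6 (186 reads), Hoxa7 (294), Hoxb13 (191) and Hoxd9 (177) were read in 35 of the 36 libraries each, and Hoxa9 (90), Hoxa10 (62), Hoxa13 (3), Hoxc10 (23), Hoxc13 (100), Hoxd1 (63) and Hoxd13 (18) in at most 25.

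Some members share exon bases with other genes, and neither the counting program nor strandedness is stated in the sources. In the GRCm38 annotation the antisense gene Hoxb3os covers 52.9% of the exon bases of Hoxb3 and 27.3% of those of Hoxb2. Hoxd3 and Hoxd4 share 388 bases on one strand, 9.26% of Hoxd3 and 13.2% of Hoxd4, and the gene model Gm28230 on the same strand covers 53.1% of Hoxd3 and 39.1% of Hoxd4, so the reads of both are partly uncertain. Hoxc5 shares 166 bases with Hoxc10, and Hoxa3 shares 297 with the antisense gene Hoxaas3.

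How did the Hox genes move between day 1 and day 3 in each medium? In all 3 media Hoxb3, Hoxb6, Hoxb7 and Hoxb8, all of HoxB, rose, and Hoxa2, Hoxa3, Hoxa4, Hoxa5, Hoxb5, Hoxd3 and Hoxd4 fell. In NTg medium Hoxd3 fell to 0.534 times its day 1 level, the steepest fall among the members, and Hoxb6 rose 1.84-fold and Hoxb3 1.65-fold. RNA of whole cultures was read, so fewer cells of a type and less RNA per cell cannot be told apart. With edgeR's quasi-likelihood test and Benjamini-Hochberg adjustment over all genes, 4 members rose and 7 fell of 19 in NTg medium, where 61.6% of all genes tested were called (30.8% higher and 30.8% lower). In mSOD1 medium 4 rose and 8 fell (56.5% of all genes called, 28.4% higher and 28% lower), and in wtSOD1 medium 5 rose and 7 fell (61.8%, with 31.1% higher and 30.7% lower), so the share of members called was close to that of all genes in each medium. The median log2 difference of the members was -0.20, -0.19 and -0.20 in the 3 media, against -0.000263, -0.00797 and -0.00574 over all genes tested.

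**Figure D2:**
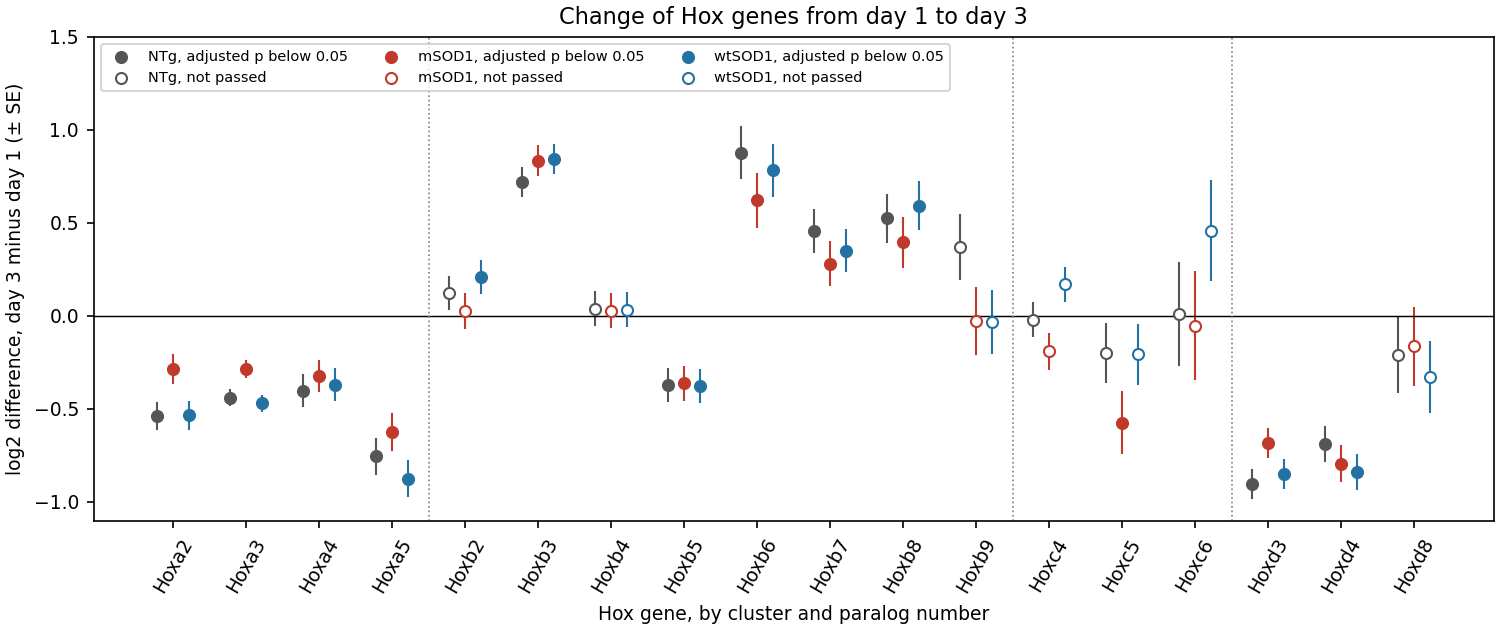
Difference between day 3 and day 1 for 18 tested Hox genes in each medium, as a log2 estimate (points) with its standard error (lines, n = 6 libraries per group); filled points have an adjusted p below 0.05 and dotted lines part the clusters. Filled points above 0 all belong to HoxB, and those of HoxA and HoxD all lie below 0.

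Hoxd3, which acts in the hindbrain and neck region, read 74.3, 85.3 and 96.2 CPM (lowest, median and highest of 6 libraries) in NTg medium on day 1 and 37.3, 45.0 and 52.5 CPM on day 3. Every day 3 library was below every day 1 library, and this held in mSOD1 medium (62.7, 80.5 and 87.6 against 43.1, 50.2 and 54.2 CPM) and in wtSOD1 medium (72.4, 82.5 and 90.8 against 39.0, 47.2 and 51.3 CPM). The log2 differences were -0.90 ± 0.08 (SE; adjusted p = 3.6e-12) in NTg, -0.68 ± 0.08 (4.97e-09) in mSOD1 and -0.85 ± 0.08 (1.4e-11) in wtSOD1 medium. With no overlap, 6 of 6 same-numbered pairs were lower in each medium by necessity. Across days, same-numbered libraries correlated at only 0.0373 in their deviations, and their matching is not stated. Pair counts between days are therefore descriptions. Its neighbour Hoxd4 read 7.54, 11.4 and 12.2 CPM on day 1 and 5.71, 6.80 and 7.80 CPM on day 3 in NTg medium, where the groups overlapped through the lowest library of day 1. In that medium Hoxd4 fell by 0.69 ± 0.10 on the log2 scale (9.51e-08), in mSOD1 medium by 0.79 ± 0.10 (1e-08) and in wtSOD1 medium by 0.84 ± 0.10 (1.3e-09), each in 6 of 6 pairs, and in the latter 2 media the groups did not overlap. Hoxd8 did not pass in any medium (log2 -0.21, -0.16 and -0.33).

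In HoxA, Hoxa2 to Hoxa5 fell in every medium. Hoxa5, a gene of the cervical and upper thoracic region, read 24.2, 27.2 and 28.8 CPM on day 1 and 14.7, 15.9 and 17.98 CPM on day 3 in NTg medium, with no overlap. It read 19.6, 23.3 and 27.6 against 13.01, 14.9 and 19.9 CPM in mSOD1 medium, where the groups overlapped, and 20.2, 25.9 and 27.9 against 11.05, 13.7 and 17.2 CPM in wtSOD1 medium, where they did not. Its log2 differences were -0.76 ± 0.10 (adjusted p = 1.51e-08), -0.62 ± 0.10 (1.45e-06) and -0.87 ± 0.10 (5.88e-10). Hoxa3, needed for structures of the neck and for hindbrain motor neurons, was the member with the least spread between libraries, a mean coefficient of variation of 5.22%. Hoxa3 read 81.3, 84.6 and 91.7 CPM on day 1 and 59.0, 62.3 and 68.9 CPM on day 3 in NTg medium, 72.4, 79.5 and 86.1 against 62.0, 66.0 and 69.5 in mSOD1, and 75.3, 84.8 and 86.9 against 55.9, 60.7 and 64.1 in wtSOD1 medium. Its groups were apart in every medium, with log2 differences of -0.44 ± 0.05 (1.62e-10), -0.29 ± 0.05 (2.37e-06) and -0.47 ± 0.05 (2.53e-11). Hoxa2, which patterns the second branchial arch and the anterior hindbrain, changed by -0.54, -0.29 and -0.53 in the 3 media, and Hoxa4 by -0.40, -0.32 and -0.37.

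HoxB was the cluster with members in both directions. Hoxb3 read 57.7, 65.2 and 75.6 CPM on day 1 and 95.2, 110.6 and 122 CPM on day 3 in NTg medium, 49.2, 55.4 and 59.3 against 79.3, 100.7 and 110.4 in mSOD1, and 46.6, 59.2 and 67.0 against 92.0, 104.4 and 127 in wtSOD1 medium. No day 3 library of Hoxb3 reached down to a day 1 library in any medium, so 6 of 6 pairs were higher in each by necessity. The log2 differences were 0.72 ± 0.08 (adjusted p = 8.91e-10), 0.83 ± 0.08 (5.56e-11) and 0.84 ± 0.08 (1.6e-11). Without strand, reads of Hoxb3 cannot be told from those of Hoxb3os, which overlaps it. Hoxb6 read 6.58, 7.75 and 8.68 CPM on day 1 and 10.6, 14.3 and 17.1 CPM on day 3 in NTg medium, and its log2 differences were 0.88 ± 0.14 (1.41e-06), 0.62 ± 0.15 (0.000453) and 0.78 ± 0.14 (9.33e-06). For Hoxb6 the days did not overlap in NTg and wtSOD1 medium (6.58 to 8.68 against 10.6 to 17.1, and 4.55 to 7.91 against 8.19 to 14.5 CPM) and overlapped in mSOD1 medium (4.92 to 8.59 against 8.16 to 13.8 CPM).

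Hoxb8, expressed in brachial and thoracic cord, read 15.3, 17.2 and 20.2 CPM on day 1 and 18.3, 25.4 and 32.4 CPM on day 3 in NTg medium, and the groups overlapped there as in the other media. Its log2 differences were 0.52 ± 0.13 (adjusted p = 0.00079), 0.40 ± 0.14 (0.0132) and 0.59 ± 0.13 (0.000181), higher in 6, 6 and 5 of 6 pairs. Hoxb7 changed by 0.46 (0.000939), 0.28 (0.0451) and 0.35 (0.00819). The call of Hoxb7 in mSOD1 medium was lost without any 1 of the experiments 1, 2, 4, 5 and 6, and in wtSOD1 medium without experiment 2 or 4. Hoxb5 fell by 0.37, 0.36 and 0.37 on the log2 scale between Hoxb3 and Hoxb6, which rose. Hoxb4, which lies between Hoxb3 and Hoxb5, had estimates of 0.04, 0.03 and 0.03, with an interval of 2 SE on either side of -0.15 to 0.23 in NTg medium. Hoxb2 passed in wtSOD1 medium alone (0.21 ± 0.09, adjusted p = 0.0482; 0.12 and 0.03 in NTg and mSOD1), and Hoxb9 in none (0.37, -0.03 and -0.03).

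In HoxC, Hoxc5 passed in mSOD1 medium only, with 7.21, 8.46 and 9.92 CPM on day 1 and 4.77, 5.43 and 7.70 CPM on day 3 (log2 -0.57 ± 0.17, adjusted p = 0.00409). Its estimates in NTg and wtSOD1 medium were -0.20 and -0.21, and the interaction tests given further on did not pass for it. Hoxc4, the HoxC member with the highest level per kb, read 27.0, 35.1 and 38.6 CPM on day 1 and 29.2, 34.6 and 38.4 CPM on day 3 in NTg medium, with log2 differences of -0.02, -0.19 and 0.17. Hoxc6 read 0.611, 1.15 and 1.95 CPM on day 1 and 0.779, 1.16 and 1.99 CPM on day 3 in that medium, and its estimates of 0.01, -0.05 and 0.46 did not pass.

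**Figure D3:**
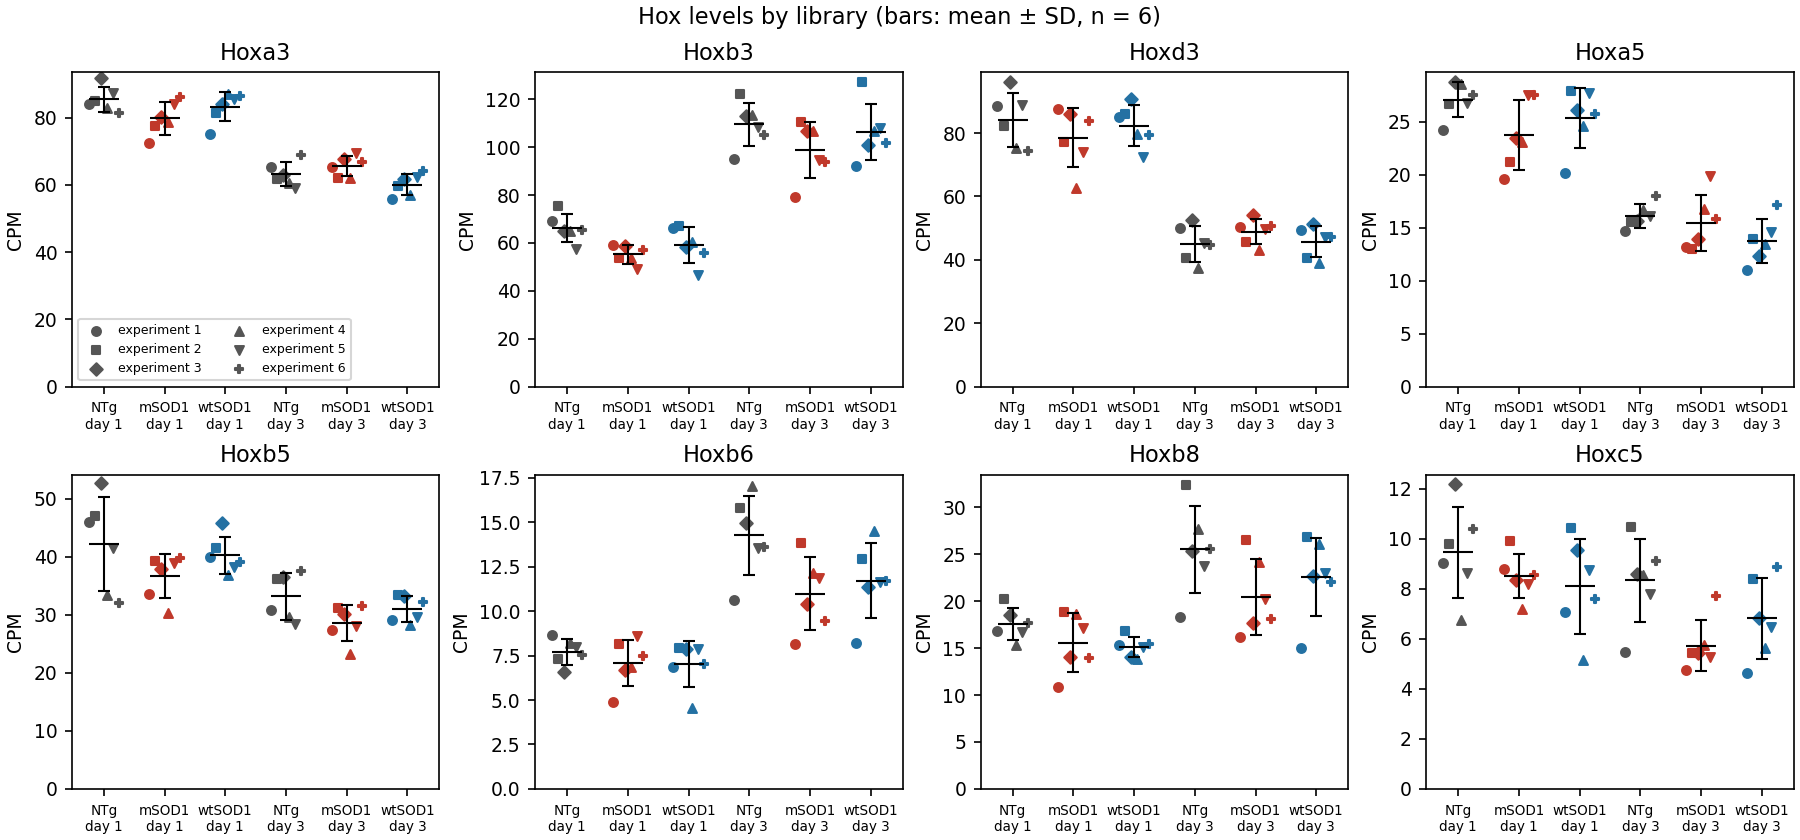
Level in CPM of 8 Hox genes in each of the 36 libraries, by medium and day (horizontal axis); symbols mark experiments 1 to 6 and black bars the mean ± SD (n = 6). Hoxa3 and Hoxd3 lie lower and Hoxb3 higher on day 3 in every medium without overlap, and experiment 1 is the lowest library of Hoxb6, Hoxb8 and Hoxc5 in each day 3 group.

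The cluster sums were compared within each library. All Hox genes together summed to 514 ± 34 CPM on day 1 and 482 ± 25 CPM on day 3 in NTg medium, with overlapping libraries. The HoxB sum divided by the HoxA and HoxD sum was 0.838 ± 0.077 on day 1 and 1.64 ± 0.18 on day 3 in NTg medium, 0.791 ± 0.039 and 1.36 ± 0.15 in mSOD1, and 0.788 ± 0.073 and 1.57 ± 0.16 in wtSOD1 medium. Among the paralogs of number 3, the ratio of Hoxb3 to Hoxd3 CPM was 0.649 to 0.921 over the NTg libraries of day 1 and 1.90 to 3.04 over those of day 3. The ratio of Hoxb3 to Hoxa3 went from 0.778 ± 0.082 to 1.74 ± 0.21 and that of Hoxa3 to Hoxd3 from 1.02 ± 0.07 to 1.42 ± 0.17 in the same medium. Sums by cluster in NTg medium were 157 and 112 CPM for HoxA, 214 and 272 for HoxB, 45.0 and 44.1 for HoxC and 97.6 and 54.2 for HoxD on days 1 and 3. These ratios were formed after the single genes had been seen and are given as descriptions.

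Groups of libraries were fully apart for 7 members in NTg, 5 in mSOD1 and 8 in wtSOD1 medium, where 38.4%, 32% and 38.3% of all genes were apart. Without NTg replicate 6 and wtSOD1 replicate 4 of day 1, 4 members rose and 7 fell in NTg medium and 3 rose and 7 fell in wtSOD1 medium, the calls of Hoxb7 and Hoxb2 being lost in the latter. In that reduced fit 62.7% (NTg) and 61.7% (wtSOD1) of all genes were called. The marker counts that follow stand beside 61.6% (NTg), 56.5% (mSOD1) and 61.8% (wtSOD1) of all genes called between days. By direction these were 30.8% higher and 30.8% lower, 28.4% and 28%, and 31.1% and 30.7%. All 8 motor neuron markers tested fell from day 1 to day 3 in every medium, and their summed level over the NTg libraries went from 1459 to 1780 CPM down to 631 to 1043 CPM. The 4 proliferation markers rose (374 to 492 against 726 to 1072 CPM in NTg medium), as did 5 of 5 tested mesenchyme markers (54.1 to 115 against 194 to 258 CPM), while neural progenitor markers rose for 3 of 7 and fell for 1 (539 to 688 against 1098 to 1271 CPM) and astrocyte markers rose for 3 of 5 and fell for 1 (71.0 to 112 against 149 to 214 CPM). All 4 tested ventral interneuron markers fell (51.2 to 62.3 against 25.5 to 36.6 CPM). Of the 3 markers of visceral or branchial motor neurons, 1 rose and 2 fell in NTg and in mSOD1 medium, and 1 rose and 1 fell in wtSOD1 medium. Their sum went from 9.26 to 12.4 CPM up to 15.03 to 17.1 CPM in NTg medium, from 8.97 to 11.99 up to 14.9 to 19.1 in mSOD1 and from 7.90 to 12.4 up to 13.09 to 18.6 in wtSOD1 medium. Oligodendrocyte markers summed to 49.4 to 188 CPM and microglia markers to 3.23 to 31.8 CPM in NTg medium on day 1, and to 38.6 to 47.9 and 4.43 to 5.51 CPM on day 3. The top of each of these day 1 ranges came from 1 library, the group means being 74.8 and 9.62 CPM. On day 1 the ranges were 47.4 to 55.3 and 4.31 to 6.55 CPM in mSOD1 medium. In wtSOD1 medium they were 46.0 to 53.2 and 4.09 to 7.09 CPM. No motor neuron marker was at 0 in any group, and the part of these shifts in the Hox differences was not tested.

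Did the medium alter the Hox genes? With the edgeR test 0 of the 19 members passed in any of the 6 comparisons of media within a day. On day 1 the share of all genes called was 0.421% for mSOD1 against NTg, 0.0263% for wtSOD1 against NTg and 1.01% for mSOD1 against wtSOD1, and on day 3 it was 2.91%, 0.0986% and 3.39% in that order. Before adjustment, 3, 1 and 1 members had a p below 0.05 on day 1, where 6.96%, 5.7% and 11.1% of all genes did. On day 3 the numbers were 9 members for mSOD1 against NTg (19.4% of all genes), 1 for wtSOD1 against NTg (2.58%) and 2 for mSOD1 against wtSOD1 (18.6%). DESeq2 called 1 member in 1 of these comparisons, mSOD1 against NTg on day 3, and 0 in the others. In that comparison it called 715 of the 12845 genes to which it gave an adjusted p, or 5.57%. No member had groups of libraries fully apart in any of them (0.349%, 0.27% and 0.829% of all genes on day 1 and 2.2%, 0.5% and 1.97% on day 3, in the same order). The comparisons within a day share libraries, so their values stand side by side and were not compared with each other.

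On day 1 the member with the lowest p for mSOD1 against NTg medium was Hoxb3, with 49.2, 55.4 and 59.3 CPM in mSOD1 and 57.7, 65.2 and 75.6 CPM in NTg medium. It was lower in 6 of 6 same-numbered pairs although the groups overlapped, and the log2 difference was -0.26 ± 0.08 (adjusted p = 0.345). For wtSOD1 against NTg it was Hoxc4, with 23.1, 29.5 and 32.7 against 27.0, 35.1 and 38.6 CPM, a log2 difference of -0.26 ± 0.10 (0.642) and 6 of 6 pairs lower. For mSOD1 against wtSOD1 it was Hoxa4, with 17.3, 18.7 and 20.8 against 12.8, 16.6 and 20.3 CPM, a log2 difference of 0.23 ± 0.09 (0.29) and 5 of 6 pairs higher. With a block for experiment within each day Hoxb3 passed as lower in mSOD1 than NTg medium (adjusted p = 0.000408, 1.24% of all genes called) and Hoxc4 as lower in wtSOD1 than NTg medium (0.0234, 0.368% called).

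On day 3 the estimates for mSOD1 against NTg medium lay below 0 for 15 of 19 members, with a median of -0.15 against -0.01 for all genes tested. All 8 tested HoxB genes and all 3 HoxC genes were among the 15, and Hoxa2, Hoxa3, Hoxa4 and Hoxd3 had estimates above 0. Hoxc5 had the lowest p, with 4.77, 5.43 and 7.70 CPM in mSOD1 and 5.47, 8.58 and 10.5 CPM in NTg medium. It was lower in 6 of 6 pairs, the highest mSOD1 library lay inside the NTg range, and the log2 difference was -0.52 ± 0.17 (adjusted p = 0.0777), with an interval of 2 SE on either side of -0.86 to -0.19. Hoxc4 followed with 24.3, 27.3 and 32.8 against 29.2, 34.6 and 38.4 CPM, also lower in 6 of 6 pairs and overlapping (log2 -0.26 ± 0.10, adjusted p = 0.119). Hoxb6 (-0.37 ± 0.14, 0.126), Hoxb8 (-0.31 ± 0.13, 0.17), Hoxb9 (-0.35 ± 0.17, 0.258) and Hoxb3 (-0.15 ± 0.08, 0.306) were each lower in 6 of 6 pairs as well and did not pass.

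The labels number the experiments, and same-numbered libraries deviated together from their group means, with a mean correlation of 0.24 over all genes on day 3 and 0.383 over the Hox genes. With experiment as a block, 5 members passed as lower in mSOD1 than in NTg medium on day 3, where 9.94% of all genes were called. These were Hoxc5 (adjusted p = 0.0103), Hoxc4 (0.0169), Hoxb8 (0.0176), Hoxb5 (0.0386) and Hoxb6 (0.0436). With a block for each experiment and day 8 members passed as lower, Hoxb2 (0.0451), Hoxb3 (0.00672) and Hoxb9 (0.0203) besides the former 5, and 18.1% of all genes were called. The estimates themselves moved little, that of Hoxc5 from -0.52 to -0.51 and -0.53. Without experiment 1, Hoxc5 passed also with no block (log2 -0.60).

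Experiment 1 had the lowest library of its group on day 3 in all 3 media for Hoxb3, Hoxb6, Hoxb7, Hoxb8, Hoxc4 and Hoxc5, genes named after their values were seen. The mean log2 deviation of its libraries on that day was -0.23 for Hoxb3, -0.42 for Hoxb6, -0.26 for Hoxb7, -0.44 for Hoxb8, -0.24 for Hoxc4 and -0.42 for Hoxc5. On the first principal component of all genes, experiment 1 also had the lowest value of its day 3 group in each medium, at 29.6 in NTg, 20.8 in mSOD1 and 26.4 in wtSOD1, where day 1 libraries lay from -45.6 to -31.5. Mesenchyme markers summed to 145 to 223 CPM in mSOD1 and 194 to 258 CPM in NTg medium on day 3, with Col1a2 (log2 -0.49, adjusted p = 0.0305) the 1 of 5 called lower. In that comparison of media 2.91% of all genes were called. Proliferation markers summed to 600 to 904 against 726 to 1072 CPM, with 0 of 4 called, and motor neuron markers to 767 to 1082 against 631 to 1043 CPM, with 0 of 8 called. The part of these differences in the Hox values was not tested.

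**Figure D4:**
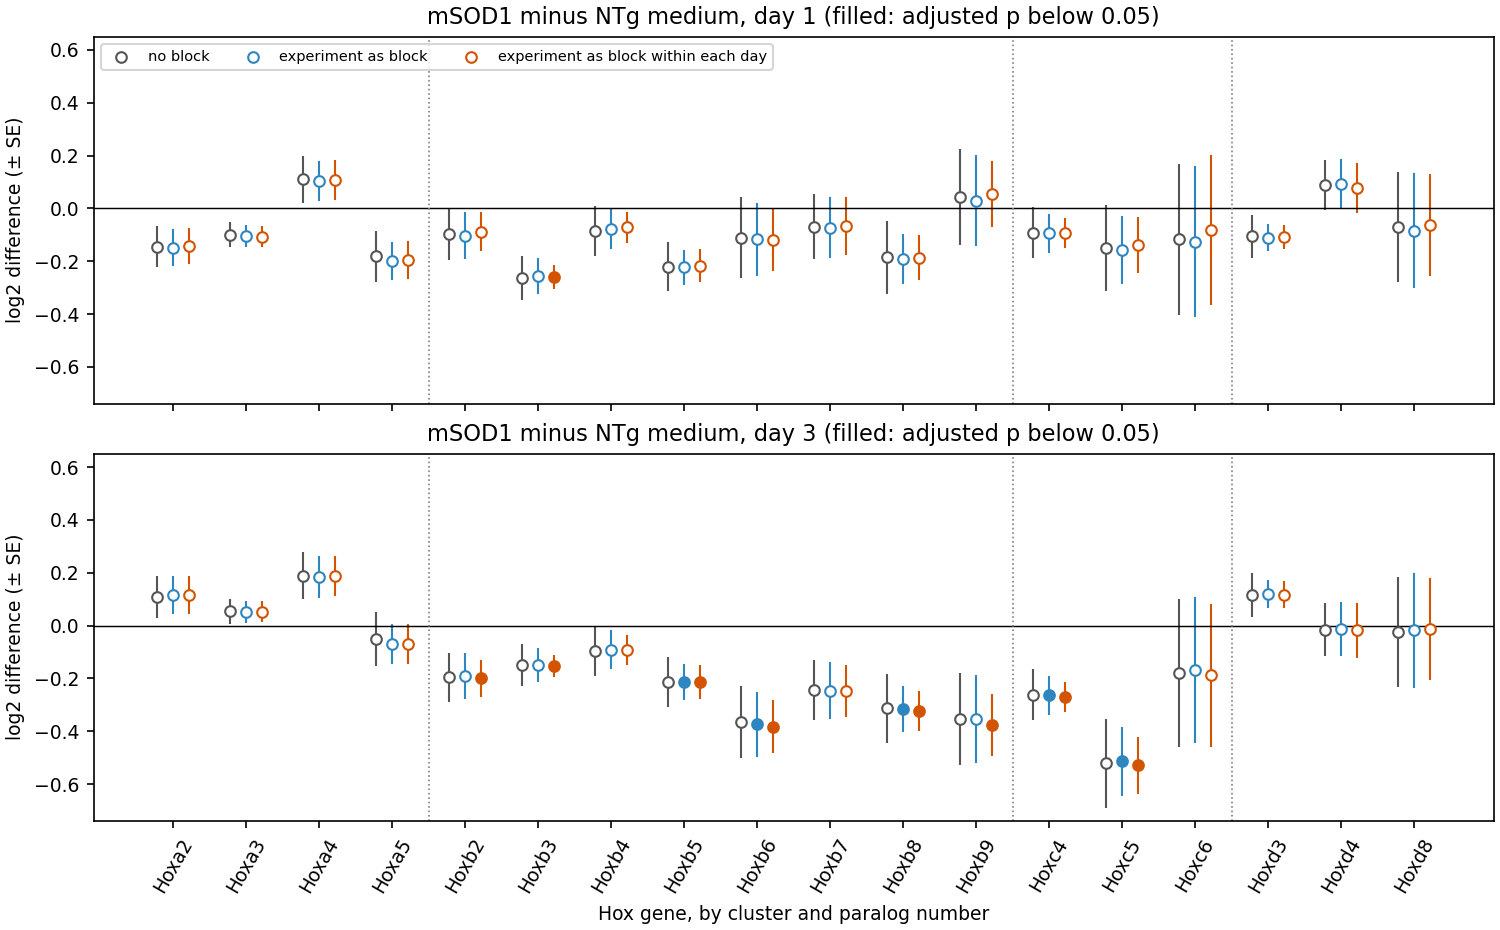
Difference between mSOD1 and NTg medium on day 1 (top) and day 3 (bottom) for 18 tested Hox genes, as log2 estimates with their standard errors (lines, n = 6 libraries per group) from fits with no block, with experiment as a block, and with experiment as a block within each day; filled points have an adjusted p below 0.05. On day 3 all HoxB and HoxC estimates lie below 0, and the filled points number 0, 5 and 8 in the 3 fits.

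For wtSOD1 against NTg medium on day 3 the lowest p belonged to Hoxa5, with 11.05, 13.7 and 17.2 against 14.7, 15.9 and 17.98 CPM, lower in 6 of 6 pairs but overlapping (log2 -0.22 ± 0.10, adjusted p = 1). For mSOD1 against wtSOD1 medium on day 3 it was Hoxa4, with 12.8, 15.4 and 16.4 against 11.3, 12.4 and 13.8 CPM. Hoxa4 was higher in 6 of 6 pairs (log2 0.27 ± 0.09, adjusted p = 0.0774) and passed with experiment as a block (0.0264, 9.32% of all genes called). With the block within each day Hoxa3 (0.13, 0.0271) and Hoxc4 (-0.19, 0.0163) passed beside it, where 15.6% of all genes were called.

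The interaction tests ask whether the change from day 1 to day 3 differed between media, and 0 of 19 members passed in any of the 3 with edgeR or with DESeq2. With edgeR 0.23% of all genes were called for mSOD1 against NTg, 0.0197% for wtSOD1 against NTg and 0.592% for mSOD1 against wtSOD1. Unadjusted p was below 0.05 for 2, 0 and 3 members, and for 14.2%, 2.85% and 15.1% of all genes. The lowest p were those of Hoxa3 for mSOD1 against NTg (0.15 ± 0.07, adjusted p = 0.281), of Hoxb9 for wtSOD1 against NTg (-0.40 ± 0.24, adjusted p = 1) and of Hoxa3 for mSOD1 against wtSOD1 (0.19 ± 0.07, adjusted p = 0.16). Hoxc5, called between the days in mSOD1 medium alone, had an interaction estimate of -0.37 ± 0.23 against NTg (adjusted p = 0.468) and of -0.37 ± 0.24 against wtSOD1 (0.484). With experiment as a block the interaction of mSOD1 against wtSOD1 passed for Hoxc4 (-0.35, 0.0432; 3.94% of all genes called). Within each day it passed for Hoxc4 (-0.35, 0.0029) and Hoxa3 (0.19, 0.025), where 10.8% were called, and that of mSOD1 against NTg for Hoxd3 (0.23, 0.0236), where 11% were called.

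Genes that work with the Hox proteins were counted over lists chosen by function. The counts between days are read against the 61.6% (NTg), 56.5% (mSOD1) and 61.8% (wtSOD1) of all genes called, and nothing particular to a list is drawn from them. Of 9 Pbx, Meis and Pknox cofactors, 1 rose and 5 fell from day 1 to day 3 in NTg medium, 1 and 7 in mSOD1, and 0 and 6 in wtSOD1 medium, with a median log2 difference of -0.64, -0.56 and -0.65 against about 0 for all genes. Pbx3, a cofactor that binds DNA next to Hox proteins, fell by 0.97 ± 0.07 on the log2 scale in NTg medium (adjusted p = 2.64e-15), and Meis2 (-0.85) and Meis3 (-0.94) fell as well. Among 11 tested regulators of Hox onset, 3 rose and 4 fell in NTg medium. Aldh1a2, the enzyme that makes retinoic acid, rose by 4.06 ± 0.38 (0.697 ± 0.423 to 13.6 ± 4.1 CPM). It is counted again among the motor column and pool genes further on. The retinoic acid receptor Rarg rose by 1.11 ± 0.13, and Rxrg, a partner of such receptors, fell by 1.81 ± 0.18. Cdx4 had no read in any group, and Cdx1 and Cdx2, caudal activators of Hox genes, were too low to test.

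Of 27 Polycomb and trithorax genes, which keep Hox clusters silent or active, 4 rose and 11 fell in NTg medium (61.6% of all genes called), 3 and 13 in mSOD1 (56.5%), and 5 and 13 in wtSOD1 medium (61.8%), a share close to that of all genes. Phf19 rose by 2.88 ± 0.18, Phc1 fell by 0.50 ± 0.04 and Mtf2 by 0.40 ± 0.05 in NTg medium. Among 12 tested genes flanking the clusters 2 rose and 4 fell in NTg medium, with Lnp (-0.57) beside HoxD and Hibadh (0.34) beside HoxA. The antisense gene 2700086A05Rik, which the GRCm38 annotation calls Hoxaas3 and which overlaps Hoxa3 and Hoxa7, fell in all 3 media (-0.48, -0.36 and -0.50), and its reads cannot be told from those of its partners without strand.

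Of 13 genes by which Hox proteins set motor columns and pools, 3 rose and 7 fell in NTg medium, 3 and 6 in mSOD1, and 2 and 7 in wtSOD1 medium, beside the same shares of all genes. Ret, a receptor for GDNF family ligands, fell by 1.14 ± 0.08, Lhx1, which marks lateral limb motor neurons, by 1.35 ± 0.11, and Isl2, itself a motor neuron marker, by 2.53 ± 0.20. In mSOD1 against NTg medium on day 3, where 2.91% of all genes were called, Foxp1, the Hox accessory factor of limb-innervating motor neurons (0.26 ± 0.07, adjusted p = 0.0406), Gfra1 (0.47 ± 0.09, 0.00487) and Ret (0.31 ± 0.08, 0.0228) were higher, and 0 of 13 were lower. In that comparison Rara, a retinoic acid receptor, was lower (-0.24 ± 0.06, 0.0321), and none of the 9 cofactors or the 27 Polycomb and trithorax genes passed. Of 15 genes listed for the forebrain and midbrain 5 were tested, and Six3 rose and En1 and Gbx2 fell in all 3 media. En1 is also among the ventral interneuron markers, so genes of this list are not confined to those regions.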

How the data were processed

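Each of the 36 libraries has a deposited file with raw read counts per gene in the column Reads and a transformed expression score in the column VSE, per the file headers; the score's scale is not stated and it was not used. TopHat 1.3.3, DESeq and the build mm9 are named in the submitters' processing notes, whereas the sources used here state no counting program, annotation or strandedness. Groups came from the labels, and 7 genes listed by identifier with no symbol were kept in the fit.

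Counts were fitted over all 36 libraries and 6 group means with edgeR 4.0.16 (limma 3.58.1, R 4.3.3), using TMM scaling, filterByExpr and the quasi-likelihood test with 30 residual degrees of freedom. P-values were adjusted by Benjamini-Hochberg over the 15207 genes tested, with a threshold of 0.05. CPM are counts scaled to 1e6 reads of the TMM-scaled library total. Levels per kb used the union of exons of GENCODE M21 (GRCm38), a build other than that of the counts. Library totals of 4386946 to 88931151 reads set the precision, and 0 counts were given the limit of 3 reads. The labels number the experiments, and libraries of one number were read as one experiment across media and days, which is not stated. Their deviations from the group means correlated at 0.132 on day 1 (over 0.1 in 11 of 18 pairs) and 0.24 on day 3 (16 of 18), against -0.026 and -0.0479 for unlike numbers. Across days, same-numbered libraries correlated at 0.0373 (over 0.1 in 9 of 54 pairs). That experiments were separate cultures is not stated, so p-values measure the spread between these libraries.

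Members, lists and tests were chosen with earlier results of these data known. Values in full were given for the 3 members of lowest p in each direction between days, the 1 or 2 of lowest p in each comparison of media and interaction, the highest per kb of each cluster, and Hoxb1, Hoxa3, Hoxc4, Hoxa5, Hoxc5, Hoxc6, Hoxc8, Hoxc9 and Hoxd10. Some genes are counted but not reported by name here. From each other list up to 4 genes of lowest p between days in NTg medium were named. Alternatives were RLE scaling, DESeq2 1.42.0, no filter on low counts, experiment as a block (also within each day), leaving out each experiment, leaving out the smallest and largest day 1 libraries, and the longest transcript as length. On simulated counts for day 3 against day 1 in NTg medium (15207 genes), the fit recovered 82% of 100 changes of 1.5-fold and 95% of 100 changes of 2-fold, with 8 false calls. Only these genes, of a mean above 1 CPM, were changed, and the simulated libraries were independent, with no experiment effect. In the data 61.6% of genes were called in that comparison, so the recovery and false calls hold for the simulated setting only.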

Additional observations from a re-analysis of the deposited data

Results flagged for a closer look

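In 4 of 108 groups of 6 libraries 1 library lay far from the other 5 for a tested Hox gene, where about 5.4 would by chance (1 in 20). Hoxb6 read 4.55 CPM in wtSOD1 day 1 replicate 4, the largest library, against 6.85 to 7.91 CPM in the other libraries. Hoxc4 read 27.3 CPM in mSOD1 day 1 replicate 4, against 31.7 to 34.0 CPM. Hoxc5 read 7.70 CPM in mSOD1 day 3 replicate 6, against 4.77 to 5.76 CPM. Hoxd8 read 2.90 CPM in mSOD1 day 3 replicate 2, against 1.502 to 2.01 CPM.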

How the results depend on the processing

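Member differences were recomputed under the alternatives only for members called or of lowest p in a comparison, and none of these changed direction. Of the recomputed differences 15 lost a call, 10 gained one and 468 kept their status. The median log2 difference of the members for mSOD1 against wtSOD1 medium on day 1 did change sign. It was 0.044 as given, and -0.0332, -0.0115 and -0.0267 without experiment 4, 5 or 6. Without the smallest and the largest library of day 1 it was -0.043. Medians near 0 also changed sign for the interaction of wtSOD1 against NTg (-0.00509, and 0.0145 without experiment 2). For that of mSOD1 against wtSOD1 the median was -0.00461 as given, and 0.00345, 0.00289 and 0.0094 without experiment 2, 4 or 6. With experiment as a block (replicate block) the members called went from 0 to 5 for mSOD1 against NTg medium on day 3, from 0 to 1 for mSOD1 against wtSOD1 on day 3 and from 0 to 1 for the interaction of mSOD1 against wtSOD1. The share of all genes called rose as well, from 2.91% to 9.94%, from 3.39% to 9.32% and from 0.592% to 3.94%. With the block within each day the members called went from 0 to 1 for mSOD1 against NTg on day 1, 1 for wtSOD1 against NTg on day 1, 8 for mSOD1 against NTg on day 3, 3 for mSOD1 against wtSOD1 on day 3, 1 for the interaction of mSOD1 against NTg and 2 for that of mSOD1 against wtSOD1. In that order the share of all genes called was 0.421%, 0.0263%, 2.91%, 3.39%, 0.23% and 0.592% with no block. With the block within each day it was 1.24%, 0.368%, 18.1%, 15.6%, 11% and 10.8%. For mSOD1 against NTg on day 3, Hoxc5 alone passed with DESeq2 (1 member, adjusted p = 0.0412), without the smallest and the largest library of day 1 (1 member, 0.0489) and without experiment 1 (0.0457), and the count lay between 0 and 1 when each experiment was left out. Of all genes 5.57%, 4.05% and 2.55% were called in these 3 fits, in that order. Of the other counts of members called (129 values), most were 0 in both fits, and the rest, between days, stayed within 1.5 times those given. Between days the counts were 11 to 12 in NTg, 11 to 13 in mSOD1 and 10 to 13 in wtSOD1 medium. The share of all genes called ran from 47.1% to 63.6%, from 42.6% to 58.8% and from 48.5% to 63.8%. Levels per kb moved with the longest transcript for 6 of 19 members, among them Hoxa3 (28.1 CPM per kb over all libraries) and Hoxd3 (21.6). The causes were not tested. Differences in Hoxc6, Hoxd8 and Hoxb9, whose libraries varied by 20.7% to 32% within groups, are the least precise.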
